A study of Gallus gallus with 7 samples.

Results

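The segments described here are all those that the deposited segment table places on chicken chromosomes 15 to 20, together with those on chromosome 14 that lie beyond the end of the deposited site table. They number 7357 of 53008 segments, and no segment was left out for its p-value, q-value or difference. Chromosome 14 gave 987, chromosome 15 gave 1273, chromosome 16 gave 37, chromosome 17 gave 1259, chromosome 18 gave 1272, chromosome 19 gave 1122 and chromosome 20 gave 1407. On chromosome 14 the first included segment starts at 4890111 (group means 20.8% non-conditioned and 24.2% conditioned), and the last one left out ends at 4876148 (16.3% and 16.97%). All coordinates are galGal5, counted from 1.

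The study used reduced representation bisulfite sequencing (RRBS), which reads DNA methylation in CpG-rich fragments, on microglia, the resident macrophages of the brain, sorted from the anterior hypothalamus of chicks at day 10 after hatch. The conditioned group (3 libraries, numbered 1-2, 3 and 4) had been held at 39 °C for 24 h on day 3, and the non-conditioned group (4 libraries, numbered 1 to 4) had not. Neither group had received LPS, each library pooled 10 to 12 chicks, and 15 to 30 ng of DNA was used. The labels give no strain or sex and do not say how library 1-2 was made. Segments were not linked to genes here, so the cell type label was not checked against marker genes.

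Bird genomes are split into a few large chromosomes and many small ones, the microchromosomes, which are rich in genes, GC and CpG islands and recombine often. Of chromosomes 14 to 20, all but chromosome 16 are larger members of that small class. The segments of chromosome 16 span only 0.586 Mb. CpG islands at active promoters are usually unmethylated, and most CpGs outside them are methylated in vertebrate cells. Chicken chromosome 16 carries the major histocompatibility complex, whose products present antigen, and the ribosomal RNA genes.

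The segment table gives 1 mean per group and no library values for any of these segments. A difference between the group means therefore has no error of its own and no test between libraries, and fewer methylated cells or less methylation per cell cannot be told apart. The number of reads behind each value is unknown. As a scale of library error, standard errors were computed in 11570 segments of chromosomes 1 and 10 to 13 and the first part of chromosome 14, where the site table gives all 7 libraries. Every difference below is conditioned minus non-conditioned, in percentage points.

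Segments were dense on these chromosomes. Over the 69.2 Mb between the first and last segment of each chromosome there were 106.3 segments per Mb, against 32.7 on chromosomes 1 to 5 and 166.5 on chromosomes 21 to 33. By this span chromosome 17 had the highest density of the 7, at 122.0 per Mb, followed by chromosomes 18 (115.7) and 19 (113.0). The first segment of chromosome 17 lies at 581180, and those of chromosomes 15, 18, 19 and 20 at 21157 to 47415. The span of chromosome 17 thus leaves out more of its start, and the order of chromosomes 17 and 18 was not checked on another span. Chromosomes 15 and 20 both had 100.3, chromosome 14 had 92.7, and chromosome 16 had 63.15 over only 0.586 Mb. Even at these densities the segments covered 0.803% of the span. A segment was short, with a median length of 52 bp and a median of 10 CpG positions, where each strand of a CpG counts as a position. The fewest positions in any segment was 10, and 51.2% of these segments had exactly that number, so many sat at the lower limit of the table.

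**Figure D1:**
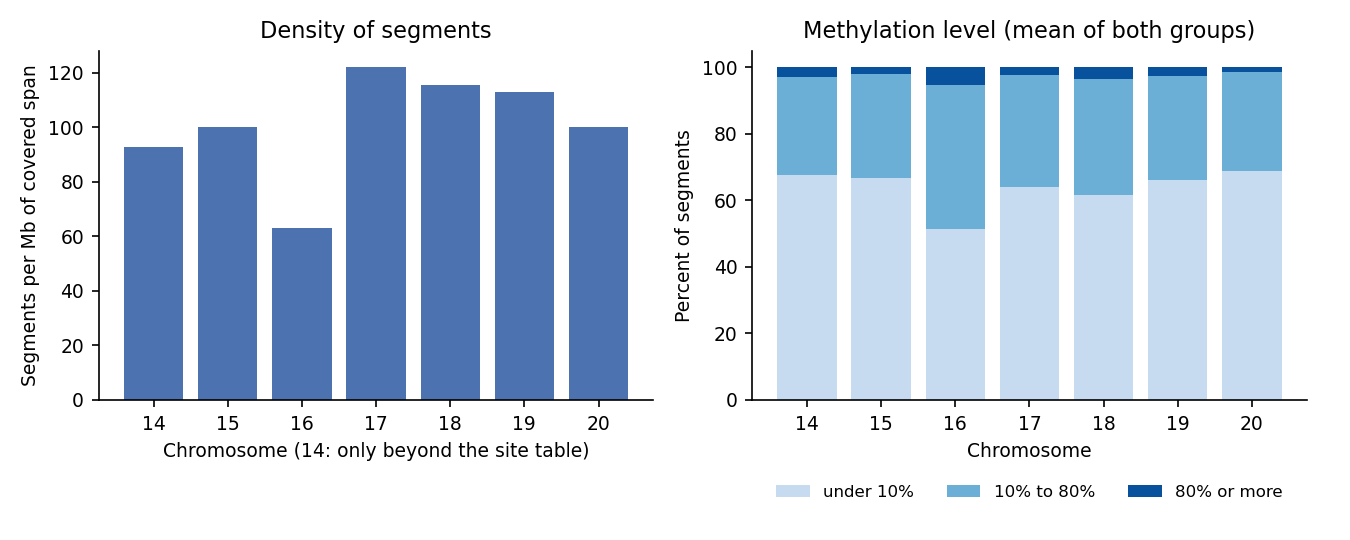
Left, segments per Mb between the first and last segment of each chromosome, the first on chromosome 17 lying at 581180. Right, percent of segments in 3 classes of methylation level, the mean of both group means. Chromosome 17 has the highest bar at 122.0 per Mb and chromosome 16 the lowest at 63.15, and chromosome 16 also has the smallest share of segments under 10%, 51.4% of 37.

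The segments were unevenly placed. On chromosome 18 the window from 9 to 10 Mb held 422 segments, 33.2% of that chromosome, whereas the window from 8 to 9 Mb held 22. On chromosome 20 the window from 10 to 11 Mb held 380, or 27.0%. Chromosome 19 had 218 between 5 and 6 Mb, chromosome 14 had 200 between 12 and 13 Mb, chromosome 17 had 191 between 9 and 10 Mb, and chromosome 15 had 173 between 9 and 10 Mb. These densest windows had no common level. The share of segments under 10%, 65.7% over all 7357, was 46.0%, 51.3%, 60.1% and 56.5% in the windows of chromosomes 18, 20, 19 and 14, and 67.5% and 79.8% in those of chromosomes 17 and 15. Joined across gaps of up to 1000 bp, the 7357 segments formed 2470 runs. Of these, 1065 were single segments and 530 had 5 or more, and the latter held 3884 segments. The longest run, on chromosome 15 from 928762 to 939155, had 39 segments whose levels ran from 3.08% to 90.6%, so it crossed unmethylated and methylated DNA within 10394 bp. The next 2 longest had 24 segments, on chromosome 15 from 7567328 to 7571688, and 20 segments, on chromosome 18 from 9692616 to 9697311.

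Most of the segments were nearly unmethylated. The mean of both groups was under 10% in 65.7%, between 10% and 80% in 31.9% and 80% or more in 2.38%. The median level was 5.13%. By chromosome, the share under 10% ran from 61.5% on chromosome 18 to 68.8% on chromosome 20, with 51.4% on the small chromosome 16. Chromosome 18 had 44 segments at 80% or more, 3.46% of its own, and chromosome 20 had 20, or 1.42%. The levels stood between those of the large and the smallest chromosomes, where 79.8% (chromosomes 1 to 5) and 57.3% (21 to 33) of segments were under 10%. These shares were not tested, because segments of the same libraries are not replicates. They describe segments listed with a group difference, not all CpGs of the chromosomes.

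Level followed how closely the CpG positions were packed. Segments with under 3 bp per position had a median level of 2.86%, and 86.9% of them were under 10%. With 10 bp or more per position the median was 19.1%, and 35.04% were under 10%. Across the 7357 segments, which share libraries and, within runs, sequence context, Spearman's rho between spacing and level was 0.459. It lay between 0.428 and 0.496 on the 6 larger chromosomes and was 0.128 over the 37 segments of chromosome 16. Neighbouring segments 1 to 100 bp apart were alike in level, with a median gap of 2.30 points. The gap was 18.2 points between segments more than 1000 and up to 10000 bp apart. Beyond 10000 bp it was 9.92 points, so it did not rise steadily with distance. With 65.7% of the segments under 10%, many pairs are alike in level whatever their distance.

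Conditioned microglia had lower methylation in 5585 of the 7357 segments (75.9%), and higher in 1772. Over all 53008 segments 77.6% were lower, so the share here is near the background. The median group means were 6.49% and 3.83%, and the median difference was -1.87 points, against -1.88 over all segments. By chromosome, the share lower ran from 73.7% on chromosome 18 to 78.0% on chromosome 15, with 70.3% on chromosome 16. The median difference ran from -1.67 points on chromosome 14 to -1.92 on chromosomes 15 and 19, with -2.32 on chromosome 16. The direction was spread along the chromosomes. At least 20 segments were held by 65 windows of 1 Mb, chromosome ends and the single window of chromosome 16 included. In 65 of the 65 the median was below 0, from -3.77 to -1.38 points. With 75.9% of the segments lower, a median below 0 is likely in any such window, and the windows share libraries. Windows were not counted over the rest of the genome, so this count has no background.

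The direction depended on the level. Among the 4834 segments under 10%, 86.0% were lower, with a median difference of -1.80 points. At 2% to 5%, the largest class with 2775 segments, the median level was 3.88% without and 2.06% with conditioning. At 10% to 20% the share lower was 70.6%. The direction turned at 20% to 50%, where 57.9% of 865 segments were higher in conditioned microglia and the median difference was 4.18 points. That median is no typical shift: only 17 of the 865 differed by under 2 points, and the quartiles were -6.96 and 7.98. The median group means of this class were 32.5% non-conditioned and 34.8% conditioned. At 50% to 80% the share lower was 56.0%, and at 80% or more it was 66.9%. Levels of 10% to 90% alone gave 56.2% lower. The rest of the genome had 86.4% lower under 10% and 60.1% higher at 20% to 50%. At 50% to 80% its median was -1.52 points with 51.1% lower, against -3.49 points and 56.0% here. Only 22 of the 693 segments of that class here differed by under 2 points, so such a median can move far with a small change in share. Weighting its shares by the level classes of these chromosomes gives 75.4% lower, against the 75.9% found.

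**Figure D2:**
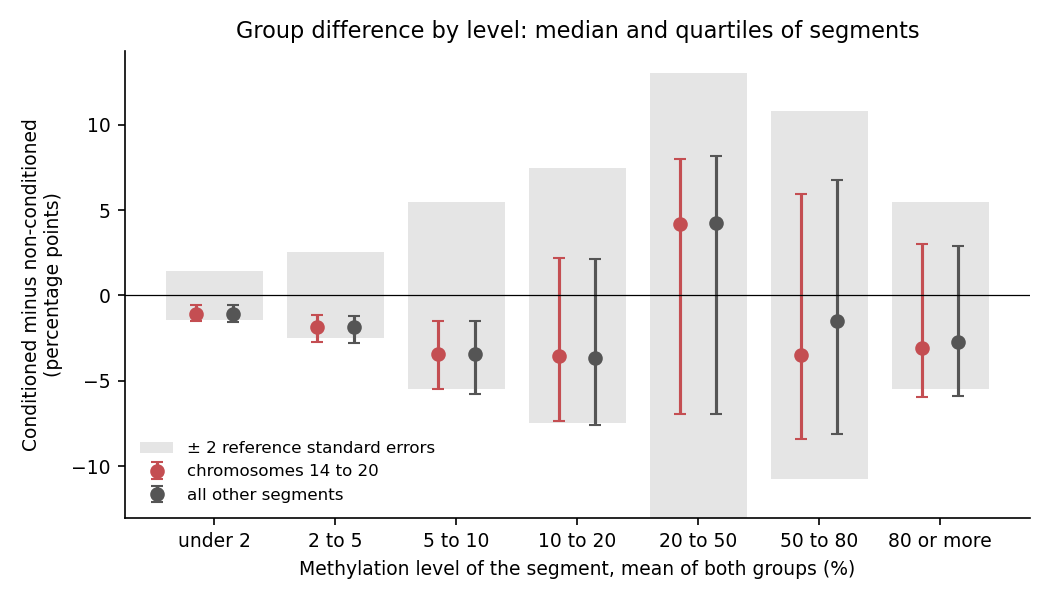
Difference between deposited group means (vertical axis, percentage points) in 7 classes of methylation level. Points are medians and bars quartiles over segments of chromosomes 14 to 20 (red) and over all other segments (grey); the light bars span 2 reference standard errors on either side of 0. Medians lie below 0 in every class except 20% to 50%, where they are 4.18 and 4.24 points.

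The library values available elsewhere show what lies behind such group means. In the 983 segments at 20% to 50% with library values, conditioned library 1-2 averaged 41.1%, against 31.2% to 33.6% in the 4 non-conditioned libraries, 29.3% in conditioned 3 and 32.8% in conditioned 4. Library 1-2 thus stood above all others, and conditioned 4 lay inside the non-conditioned range. Of these segments 37.6% were lower in conditioned microglia, and 54.7% were lower without library 1-2, so the direction there turned with that library. At 50% to 80% library 1-2 also stood above all others, at 68.4%, against 62.4% to 65.7% in the non-conditioned libraries. Conditioned 3 and 4 averaged 59.6% and 63.65% there. The group difference in that class was -0.836 points, and -3.10 points without library 1-2. At 80% or more, over 170 segments, conditioned libraries 1-2, 3 and 4 averaged 85.0%, 83.95% and 85.6%. All of them lay below the non-conditioned range of 86.95% to 88.5%. The group difference there was -2.72 points, and -2.81 points without library 1-2. Under 10%, all 3 conditioned libraries lay on the same side: 67.3%, 91.7% and 88.7% of 8625 segments were below the non-conditioned mean in libraries 1-2, 3 and 4. No such share was computed for a single non-conditioned library. The distances were unequal. At 2% to 5% library 1-2 averaged 3.62%, against 3.99% to 4.28% in the non-conditioned libraries, while conditioned 3 and 4 averaged 1.52% and 1.83%. Whether the same library sets the direction at 20% to 50%, or the difference at 50% to 80%, on chromosomes 14 to 20 was not tested. Only group means are given there.

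**Figure D3:**
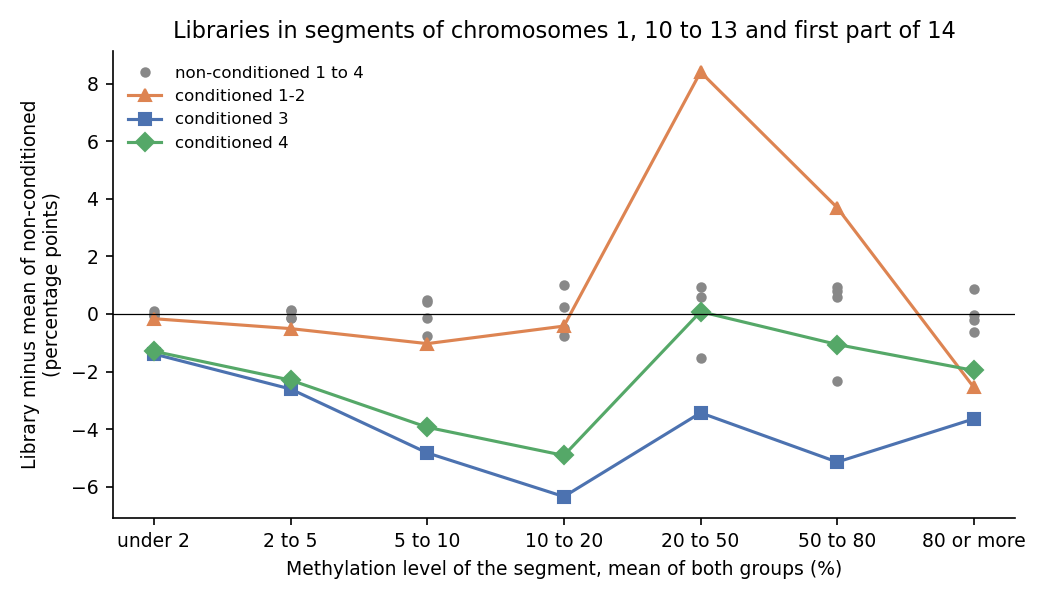
Each library's mean minus the mean of the non-conditioned libraries (vertical axis, percentage points) by level class, in 11570 segments of chromosomes 1, 10 to 13 and the first part of 14. Grey points are the 4 non-conditioned libraries, and the colored points joined by lines are the 3 conditioned ones. Conditioned 1-2 stands at 41.1% in the 20% to 50% class and at 68.4% in the 50% to 80% class, in each above every other library. In the classes under 10% it stands below all 4 non-conditioned libraries. At 10% to 20% it stands at 15.15%, below their mean but inside their range of 14.8% to 16.6%.

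The nearest replicated measurement is the first part of chromosome 14, with 454 segments. It was less methylated than the part described here: 74.9% of its segments were under 10%, against 67.6%. The share lower was 80.2%, against 74.8%, so its difference need not hold for the part described here. The mean of the 454 was 11.35%, 11.3%, 12.2% and 12.0% in non-conditioned libraries 1 to 4. It was 11.8%, 8.43% and 9.52% in conditioned libraries 1-2, 3 and 4. Conditioned library 1-2 lay within the non-conditioned range, and the other two lay below it. The group means were 11.7% ± 0.449 (SD, n = 4) and 9.93% ± 1.745 (SD, n = 3), a difference of -1.79 points that did not pass (two-sided exact permutation p = 0.114, smallest possible 0.0286). It was -2.74 points without conditioned library 1-2 and -1.04 without conditioned 3. In segments of at least 20 positions alone it was -3.26 points, at the smallest possible p (exact permutation p = 0.0286). Measured against chromosomes 1 and 10 to 13 in the same libraries, chromosome 14 differed by 0.0641 points between the groups (exact permutation p = 0.686). That difference turned to -1.18 in segments of at least 20 positions (exact permutation p = 0.257). The segments were found on these same libraries, so none of these p-values is independent evidence.

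How alike the 6 larger chromosomes were depended on the level. At 2% to 5% the median difference ran only from -1.92 points on chromosome 19 to -1.77 on chromosome 20. At 20% to 50% it ran from 3.08 points on chromosome 15 to 5.50 on chromosome 18, where 63.1% of 168 segments were higher. At 50% to 80% the median was 2.95 points on chromosome 14, where 49.5% were lower. On the other larger chromosomes it ran from -4.26 on chromosome 17 (62.9% lower) to -2.84 on chromosome 18. In both classes few segments differed by under 2 points, 17 of 865 at 20% to 50% and 22 of 693 at 50% to 80%. Quartiles lay on both sides of 0, at -6.81 and 5.99 on chromosome 14 at 50% to 80%. The sign of such a median can therefore turn with a small change in the share lower. Chromosome 16 had 5 segments at 20% to 50%, with a median of -6.72 points, and 7 at 50% to 80%, with a median of 4.53 points.

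**Figure D4:**
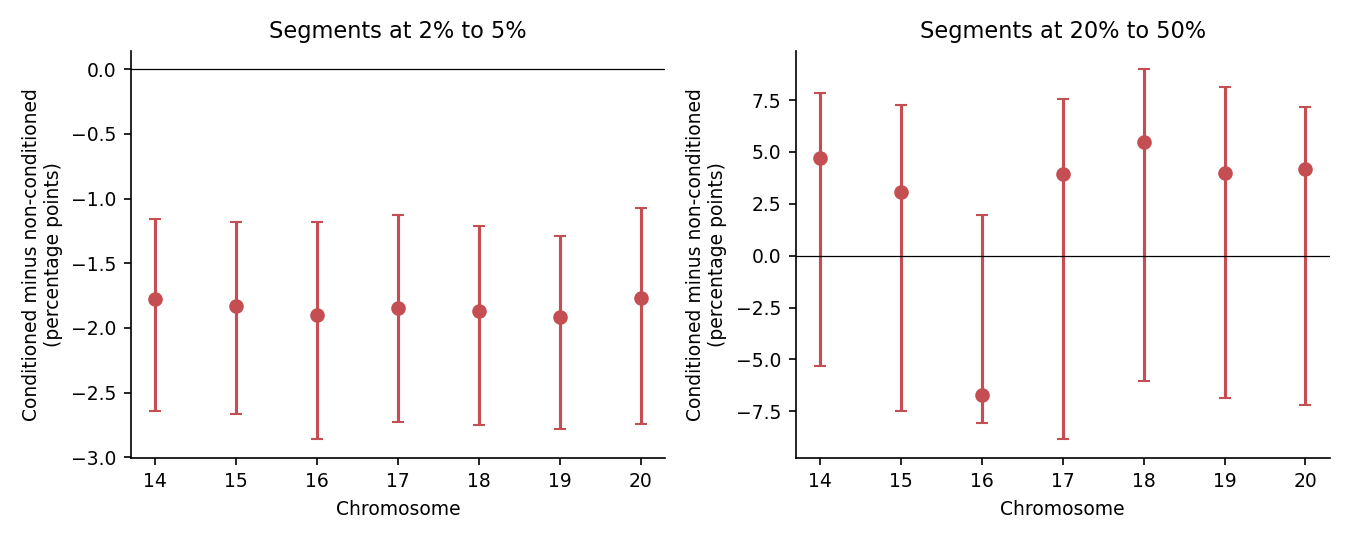
Difference between deposited group means (vertical axes, percentage points) by chromosome for segments at 2% to 5% (left) and at 20% to 50% (right). Points are medians and bars quartiles over segments. At 2% to 5% all 7 medians lie between -1.92 and -1.77; at 20% to 50% they are above 0 on all chromosomes except 16, which has 5 segments there.

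Against the scale of library error, 1795 segments (24.4%) were lower and 452 (6.14%) higher by more than 2 reference standard errors, the median standard error of segments of the same level class. Over all segments the shares were 26.3% and 5.61%. The margin was 2.52 points at 2% to 5% and 13.03 points at 20% to 50%. At 20% to 50%, 8.79% were lower and 9.595% higher by more than the margin, so the shares beyond the margin were close on both sides of 0. With standard errors computed without conditioned library 4 the counts were 1190 and 298.

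In the authors' deposited table, a total of 48 of these segments had a q-value under 0.05, or 0.652%, against 0.683% of all segments. Of the 48, 43 were lower in conditioned microglia (0.621% of all segments are called lower) and 5 were higher (0.0623% are called higher). Chromosome 17 had 10, chromosome 20 had 9, chromosome 14 had 8, chromosomes 15, 18 and 19 had 7 each, and chromosome 16 had 0. All called segments of chromosomes 14 and 19 were lower. Over all segments 329 of 362 calls were lower, so this is no result about these chromosomes. The deposited q-value does not measure the spread between libraries: the smallest deposited Mann-Whitney p-value here is 4.02e-14, whereas an exact rank test on 4 and 3 libraries cannot go under 0.0571. Calls also went with the number of positions, since 28 of the 500 segments with 20 or more positions were called (5.60%), and 1 of the 3767 with 10.

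The called segments were sites of very low methylation with small differences. Low levels were no trait of these chromosomes: of the 362 calls over all segments, 258 were at 2% to 5% and 71 at 5% to 10%. Here the 43 lower ones ranged from 2.76% to 9.92% in non-conditioned chicks and from 0.640% to 3.48% in conditioned ones. They differed by -8.29 to -1.37 points. The smallest deposited q on these chromosomes, 6.37e-09, belonged to chromosome 19, 8251371 to 8251451, with 7.55% in non-conditioned and 1.83% in conditioned microglia over 28 positions. On chromosome 14 it was 10112798 to 10112854, with 8.99% and 0.857% over 21 positions (deposited q = 0.000159). On chromosome 15 it was 6347657 to 6347727, with 5.35% and 1.001% over 18 positions, and on chromosome 18 it was 9959403 to 9959524, with 3.89% and 1.65% over 42 positions.

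Of the 5 called segments that were higher, 2 had the smallest q of their chromosome. Chromosome 20, 582079 to 582143, had 1.66% in non-conditioned and 5.22% in conditioned microglia over 30 positions (deposited q = 6.84e-08). It lay in a run of 18 segments, 16 of which were lower. The segment just before it had 2.78% and 1.02%, and the next one after it had 2.68% and 1.60%, so both neighbours were lower. The segments were found on these same libraries, so whether the higher value was local was not tested. The other higher segment of the run, at 581582 to 581616, had 20.5% and 42.6% over 10 positions. Chromosome 17, 6004180 to 6004265, had 2.04% and 5.42% over 21 positions (deposited q = 1.03e-06), and 5 of the 6 other segments in its run were lower. The remaining 3 lay on chromosome 15 at 9325270 to 9325319 (2.44% and 6.78%), chromosome 18 at 10723272 to 10723328 (7.002% and 9.83%) and chromosome 17 at 10543889 to 10543940 (1.24% and 9.97%).

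The chromosome 17 segment at 10543889 opened a stretch of higher methylation. The segments after it went from 13.3% and 9.68% at 10543949 to 12.2% and 14.7% at 10544012 and 21.6% and 26.6% at 10544057. Then came 26.5% and 39.4% at 10544110, 20.2% and 26.2% at 10544185, and 20.3% and 54.3% at 10544269 to 10544341, where the run ended. Conditioned microglia were thus higher in 6 of the last 7 segments of the run, by 2.56 to 34.05 points, and lower in 7 of the 9 before them. The stretch was described after its values were seen, and of its segments only the first had a deposited q under 0.05.

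**Figure D5:**
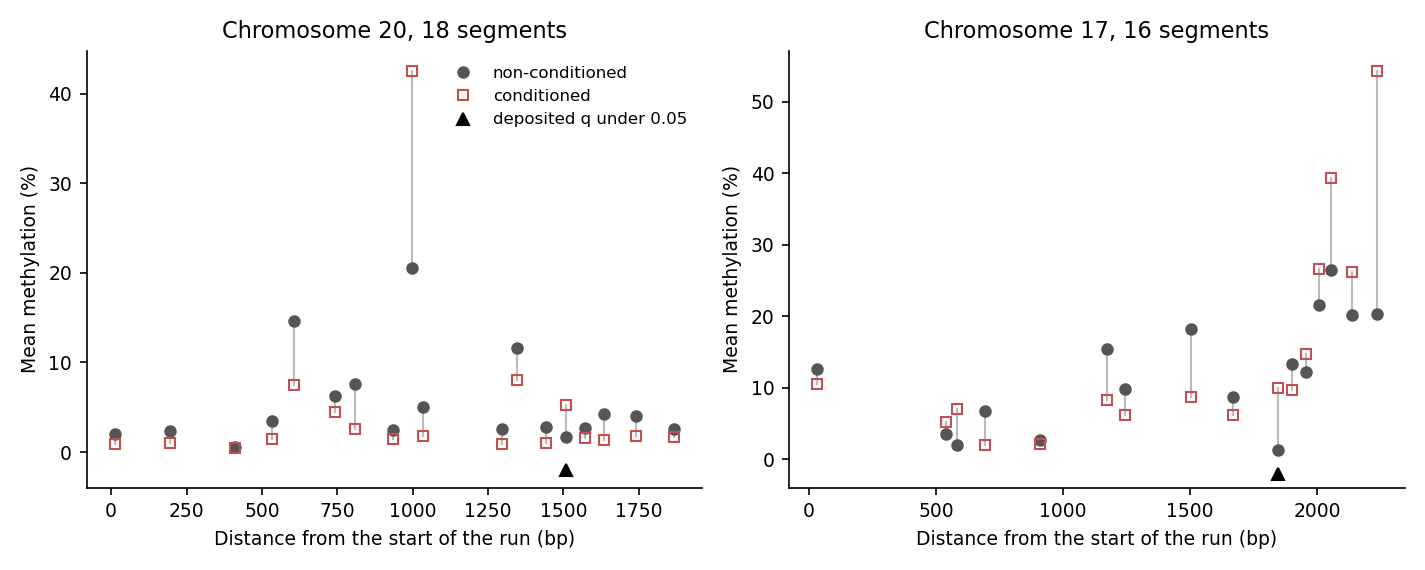
Deposited group means (vertical axis, percent methylation) of the segments in 2 runs, at their distance in bp from the start of the run (horizontal axis). Grey circles are non-conditioned, red squares conditioned, and triangles mark a deposited q under 0.05. Left, on chromosome 20, 16 of 18 segments are lower in conditioned microglia; right, on chromosome 17, the last segment goes from 20.3% to 54.3%.

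Large differences went both ways. Conditioned microglia were lower by 10 points or more in 440 segments (5.98%, against 5.53% of all segments) and higher by as much in 265 (3.602%, against 3.07%). Of the 94 segments that differed by 20 points or more, 62 were lower and 32 higher, and 70 had only 10 positions. A deposited q of 1 was listed for 94 of the 94, but also for 98.4% of all 7357 segments and 98.2% of all 53008. The largest lower difference was on chromosome 17, 9231332 to 9231403, with 51.5% and 7.46%. It was followed by chromosome 18, 9312384 to 9312472 (43.5% and 3.23%), and chromosome 19, 5536119 to 5536195 (79.6% and 39.5%). In the last of these the other 5 segments of the run were lower too, with differences from -27.1 to -4.60 points, at levels of 43.4% to 69.4%. The largest higher difference was on chromosome 14, 12542962 to 12543023, with 12.3% and 54.4%, whereas the other 3 segments of its run differed by -1.38 to 2.35 points. Chromosome 17 at 10544269, described above, was also among the 5 largest, and chromosomes 20 (106216 to 106280, 4.17% and 33.3%) and 18 (9886532 to 9886665, 15.1% and 44.2%) came next. Library values are not given for any of these segments.

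Segments in which a group was listed at 0 have to be read apart from their deposited Kolmogorov-Smirnov p-value. In 40 segments 1 group mean was 0, and in 40 of the 40 that p-value and the q-value were exactly 1, as in all 259 such segments of the table. They include chromosome 19, 8169881 to 8169935, with 38.6% in non-conditioned microglia and listed at 0 in conditioned ones, whose deposited Mann-Whitney p was 4.58e-05. They also include chromosome 14, 12805722 to 12805760 (32.5% and listed at 0), and chromosome 15, 11252486 to 11252538 (listed at 0 and 34.7%). In all, 7 segments went from 10% or more to a listed 0, and 2 went the other way. Such segments could not be called from the deposited q, whatever their difference.

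The segments with the most positions were long unmethylated stretches. Chromosome 20, 180789 to 180999, had 64 positions with 2.76% and 1.39% (deposited q = 0.00422). Chromosome 15, 6691808 to 6691987, had 59 positions with 3.91% and 3.06%, and chromosome 18, 4398737 to 4398919, had 58 with 4.92% and 1.47%; both had a deposited q of 1.

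Chromosome 16, with the major histocompatibility complex, had 37 segments and no call. With 0.683% of all segments called, a set of 37 would most often hold none. The lack of a call is therefore no result about this chromosome. At its start, from 24889 to 116667, the 11 segments had levels from 3.47% to 77.4%, and 7 were higher in conditioned microglia. The higher ones included 72814 to 72870, with 57.2% and 69.8%. From 163594 to 164247, 5 of 6 segments were lower, all under 10%, among them the smallest deposited Kolmogorov-Smirnov p of the chromosome, 0.000807, at 163688 to 163741 (4.75% and 1.47%). From 202551 to 244759, the 13 segments had levels from 2.46% to 83.9%, and 10 were lower. From 419634 to 610791, 7 of 7 were lower, with differences from -14.6 to -0.623 points, and 420037 to 420223 had 36.5% and 21.9%. Of the 9 segments at 50% or more, 6 were higher, and of the 19 under 10%, 17 were lower. The stretches were laid out after the values were seen.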

How the data were processed

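RRBS was measured in 7 libraries. Per the submitters' processing notes the build was galGal5 and the tools included Bismark 0.22.3, Bowtie, HOMER and Trimmomatic; settings and the tool that made the segments are not given in the sources used here. The authors deposited a site table of percent methylation per cytosine position and library, and a segment table of percent methylation per group, a p-value of 2 tests, a q-value, a count of CpG positions and a difference, a signed score in percentage points. Depth is unknown. The submitted site table appears to stop at the line limit of a spreadsheet, so library values of chromosomes 15 to 20 were not analysed here. In the deposited table the segments hold at least 10 positions and differ by at least 0.100 points, per the values.

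Averaging the site table over positions with a value in every library gave both deposited group means to within 0.01 points in 11570 of 11570 segments. From these, standard errors of the group difference were computed and their median taken in each of 7 level classes. The first part of chromosome 14 was compared by an exact permutation test over 35 arrangements, two-sided. The labels do not say that libraries came from separate hatches, so p-values measure the spread between these pools. Named segments were, by rule, the smallest q per chromosome, the 5 largest differences each way, the 3 with most positions and all of chromosome 16. The 5 called higher segments were all named in addition, outside that rule. Of the 43 called lower, only those that met the rule were named. Members, lists and rules were chosen with earlier results of these data known. The planned gene lists were not used, since no annotation of galGal5 was at hand. Standard errors and the permutation test were tested on simulated data drawn from normal distributions. That test did not cover the median standard error per level class or skewed values near 0. Python 3.11.15, numpy 2.4.6, pandas 2.3.3, scipy 1.17.1 and matplotlib 3.10.9 were used.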

Additional observations from a re-analysis of the deposited data

Results flagged for a closer look

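Among 9 sets of 4 non-conditioned library values, 1 held a library far from the others, where chance gives about 0.45. In segments at 50% to 80% with library values, non-conditioned library 1 averaged 62.4%, against 65.5%, 65.3% and 65.7% in libraries 2 to 4 (gap over range 0.888). The cause was not tested.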

How the results depend on the processing

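With at least 20 positions per segment, the called segments numbered 26 lower and 2 higher, the share lower was 83.0% and the density 7.225 segments per Mb. With a difference of at least 5 points, 11 lower and 1 higher were called. Levels of 10% to 90% gave 56.2% lower and a median difference of -2.605 points. A margin of 3 standard errors left 645 lower and 173 higher segments, and the 75th percentile of the reference left 678 and 184. Leaving out a library from the reference gave 1190 to 2417 lower and 298 to 605 higher. The share under 10% was 61.75% on the non-conditioned mean, 67.6% weighted by positions, and 48.9% with a threshold of 5%. The chromosome 14 difference in its first part ran from -2.74 to -1.04 points with a library left out, and in segments of at least 20 positions it was -3.26 (exact permutation p = 0.0286, the smallest possible). Relative to chromosomes 1 and 10 to 13 it ran from -0.0435 to 0.237 with a library left out, was -0.108 weighted by positions and -1.18 with at least 20 positions. The share lower with a library left out ran from 36.1% to 54.7% at 20% to 50% and from 83.1% to 90.75% under 10%, in alternatives chosen after seeing the data. Replicate numbers 3 and 4 occur in both groups, but deviations of same-numbered libraries correlated at 0.0127 and 0.0492; with the replicate block on these numbers the chromosome 14 differences were -3.12 and 0.168 points (exact permutation p = 0.50 for each, the smallest possible). A q of 0.01 or 0.1, and leaving out chromosome 14, moved no count of calls by more than 1.5 times. Density by chromosome lengths of the same build was not run. The causes were not tested. Segments are chosen for differences: at 20% to 50%, 17 of 865 differed by under 2 points.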

Other observations

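In 41 pairs of neighbouring segments at most 1000 bp apart, methylation changed from under 10% on one side to 50% or more on the other. Chromosome 20 had 10 of these borders, chromosome 17 had 9, chromosome 18 had 7, chromosome 19 had 6, chromosome 14 had 5, chromosome 15 had 4 and chromosome 16 had 0. The nearest pair was 14 bp apart and the median distance was 641 bp. On the unmethylated side 31 of 41 segments had the lower mean after conditioning (median difference -1.93 points); that is 75.6%, against 86.0% of all the segments under 10%. On the methylated side 24 of 41 were higher, with a median of 3.49 points; that is 58.5%, against 41.8% of all the segments at 50% or more. These are group means with no library values, and the difference between the sides was not tested.

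Among the 530 runs of 5 or more segments, every segment was lower in conditioned microglia in 161 and higher in 2. Runs were not counted over the rest of the genome, and 75.9% of the 7357 segments were lower, so these counts have no background. The longest runs, of 39, 24 and 20 segments, were mixed, with 25, 20 and 15 lower. On chromosome 20, from 10423818 to 10427295, 18 of 18 segments were lower, with run means of 7.23% and 4.30%. On chromosome 17, from 9997872 to 10000180, 17 of 17 were lower, with 8.01% and 5.50%. The 2 runs that were higher throughout had 5 segments each: chromosome 18, 9881248 to 9883018, with 52.4% and 60.5%, and chromosome 20, 10263615 to 10264567, with 25.4% and 31.0%. Segments 1 to 100 bp apart had the same direction in 75.6% of pairs and those over 10000 bp apart in 61.8%. With 86.0% of the segments under 10% lower, pairs of such segments often share a direction whatever their distance, so these shares do not show local agreement. Spearman's rho of the differences was 0.0803 for the near pairs and -0.0533 for the far ones, over pairs that share libraries.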
